A study of Caenorhabditis elegans with 10 samples.

Results

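The regions described here are stretches of the Caenorhabditis elegans genome where peaks of both HP1 paralogues were called in the intestine. No HPL-2 peak was called there in the hypodermis, and HPL-1 was not profiled in that tissue. A missing peak call does not show that HPL-2 was absent. The rule took the intervals of the HPL-1 intestine peak list that share at least 1 bp with an interval of the HPL-2 intestine list. Of these it kept the intervals that share no bp with an interval of the HPL-2 hypodermis list. The rule found 200 regions among the 1346 HPL-1 intervals, 14.9% of that list, out of 4583 intervals in the 3 lists. Of the other HPL-1 intervals, 778 overlapped neither HPL-2 list, 193 overlapped the hypodermis list only and 175 overlapped both. The regions were chosen by the authors' peak calls in these 3 lists, so the positions, widths and scores of their peaks are given as a description, with no test. Coordinates are those of WBcel235/ce11.

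The assay was DamID-seq, in which a protein fused to the bacterial adenine methyltransferase Dam leaves methylated GATC sites where it contacts chromatin. The groups were HPL-1::Dam in intestine (strain MRS579), HPL-2::Dam in intestine (MRS580), HPL-2::Dam in hypodermis (MRS578), GFP::Dam in intestine (BN1051) and GFP::Dam in hypodermis (BN561), each of 2 libraries from L4 larvae grown for 48 h at 20 °C. GFP::Dam is the control for open chromatin, and both intestine profiles were set against the same GFP::Dam group, so they share its libraries. Which promoter limits each fusion to its tissue is not stated in the labels, and DNA was extracted from whole larvae. Each deposited list is 1 averaged profile, so no value below has an error between replicates and no depth per library is known.

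HP1 proteins read methylated lysine on the tail of histone H3 and help to keep chromatin compact and silent. In C. elegans this mark is concentrated on the outer parts of the chromosomes, which also hold many of the large, fast-evolving gene families. The intestine takes up nutrients, stores fat and makes yolk, while the hypodermis is the skin layer that secretes the collagen cuticle. Tissue identity cannot be read from peak lists. Of the marker genes of single tissues in the gene table, the regions lay over 0 of 16 for intestine and 0 of 12 for hypodermis. The counts were 1 of 8 for body wall muscle (unc-54), 0 of 8 for neurons and 0 of 8 for germ line. The regions lay over 0.781% of all protein-coding genes, and at that share lists this short would hold few or none. HPL-2 intestine intervals lay over 4, 4, 7, 1 and 2 of these markers in the same order, and over 6.11% of all protein-coding genes. Hypodermis intervals lay over 0, 0, 7, 0 and 1, and over 5.92% of all protein-coding genes.

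The regions were about as short as HPL-1 intervals as a whole, and their intervals in both intestine lists largely coincided. Some overlap was required by the rule. The regions covered 134 kb, 0.134% of the genome extent. Their median width was 578 bp (quartiles 402 and 863 bp, range 42 to 2594 bp), against 616 bp for all HPL-1 intervals. The HPL-2 intervals they matched numbered 201, 12.1% of the 1665 intervals in the HPL-2 intestine list, and had a median width of 750 bp. In 44 regions the HPL-1 and HPL-2 intervals had identical edges. In 75 the HPL-1 interval lay inside the wider HPL-2 interval, in 29 the HPL-2 interval lay inside that of HPL-1, and in 45 they overlapped in part. In the last 7 they met at an edge. HPL-2 intervals covered at least 50% of the HPL-1 interval in 165 regions. The regions are not all separate observations, since 4 HPL-2 intervals each overlapped more than 1 of them. The widest regions with identical edges lay over osm-11, which encodes a secreted Notch co-ligand (chromosome X, 17420330 to 17421931), and cutl-4, a cuticlin-like gene (V, 17738373 to 17739912).

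**Figure D1:**
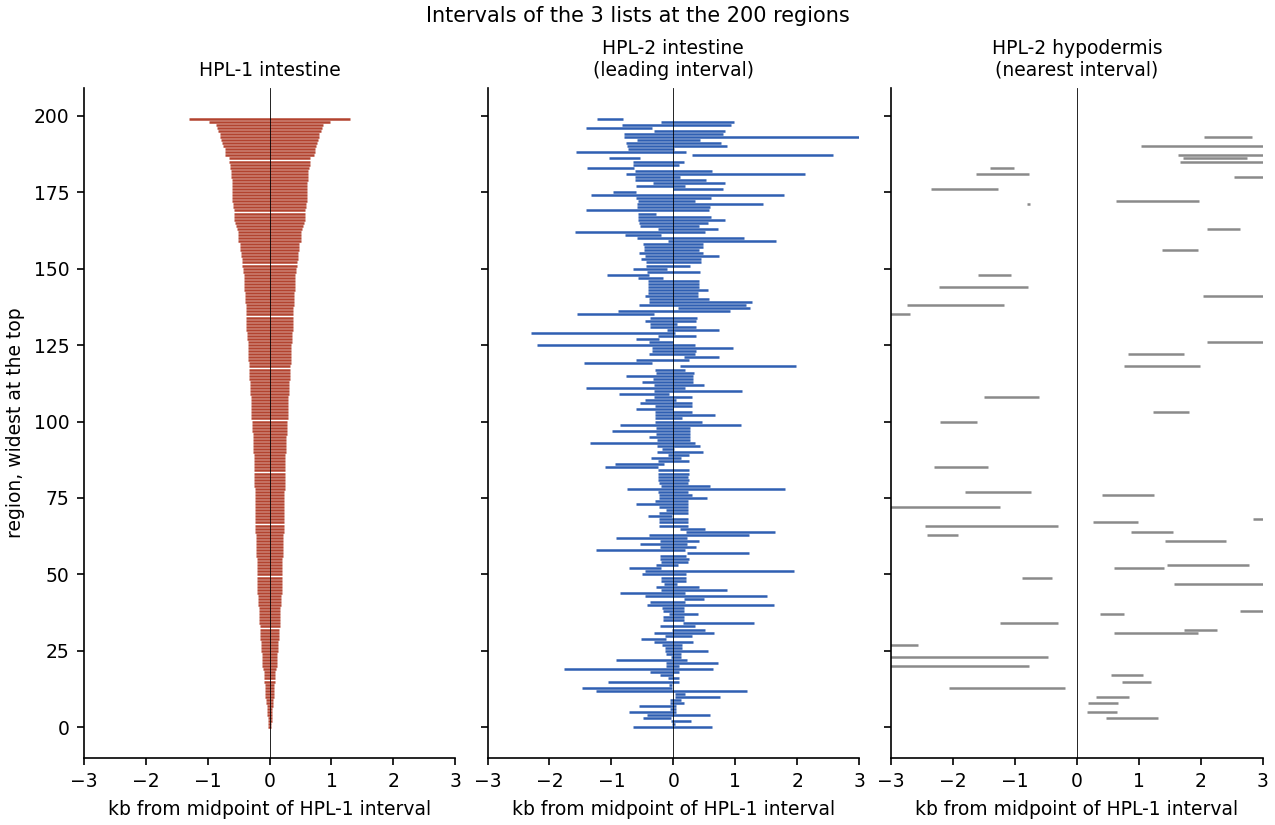
Position in kb from the midpoint of the HPL-1 interval (x) of the HPL-1 intestine interval, the leading HPL-2 intestine interval and the nearest HPL-2 hypodermis interval, for the 200 regions ordered by width (y, rank). HPL-1 intervals range from 42 to 2594 bp, HPL-2 intestine intervals lie over or beside them, and 34 regions have a hypodermis interval within 1 kb.

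Some regions met the rule only at an edge. In 7 regions the intervals shared a single coordinate, 1 bp, and the next smallest overlap was 11 bp, over spin-2. The edge-sharing regions lay over the Argonaute gene wago-10, the cadherin gene cdh-12, the calpain gene clp-7, the replication helicase gene mcm-4 and 3 genes known by sequence names (K07A3.3, W02G9.4 and F43G6.4). Just outside the rule, the nearest HPL-1 interval without an HPL-2 partner lay 39 bp from one, on chromosome II. On the other side, 9 HPL-1 intervals with an HPL-2 intestine partner were left out because they shared 1 bp with a hypodermis interval, 2 of them over the spectraplakin gene vab-10. Among the regions kept, the smallest distance to a hypodermis interval was 28 bp, next to a region of chromosome II without a gene (14322611 to 14323074).

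Distance to the hypodermis list varied widely. The median gap was 13330.5 bp, with quartiles of 2399 and 43974 bp. In 34 of the 200 regions a hypodermis interval lay within 1 kb and in 90 within 10 kb. The intervals found only in the HPL-1 list had a median gap of 31823.5 bp. In 13 regions the matched HPL-2 intestine interval itself overlapped a hypodermis interval outside the region. These included the regions over unc-54, cbs-2, lido-11, ckr-2 and ketn-1. At the far end, 22 regions had no hypodermis interval within 100 kb, and 8 of these were on X. The gap was 371921 bp for the region over col-80 and dph-2 on chromosome II, and the longest was 423980 bp, for a region of chromosome I without a gene (10281645 to 10282609).

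**Figure D2:**
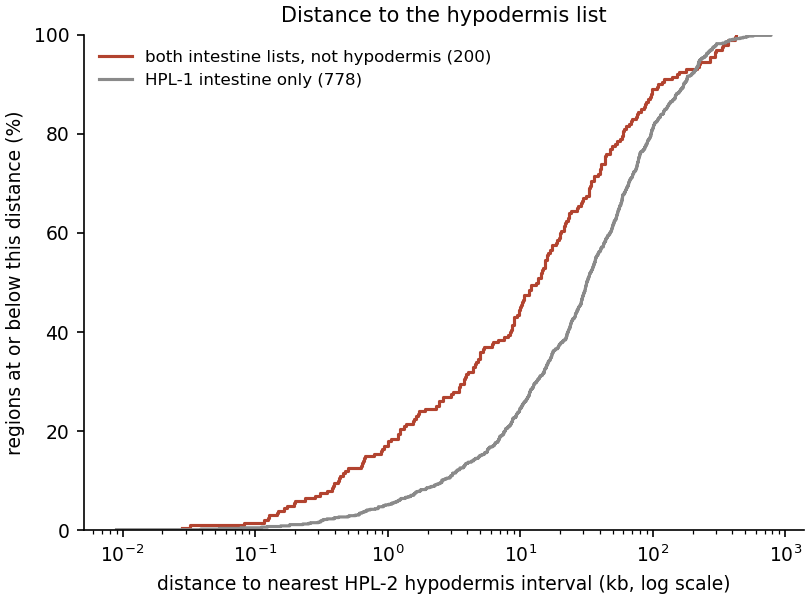
Cumulative share of regions (y, %) by distance to the nearest HPL-2 hypodermis interval (x, kb, log scale), for the 200 regions and for the 778 intervals found in the HPL-1 intestine list only. The median is 13330.5 bp for the 200 regions and 31823.5 bp for the 778 intervals.

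Scores of the peaks are the authors' own, on a scale the lists do not state, and are compared here only within a list. HPL-1 scores of the regions ran from 0.43 to 1.57 with a median of 0.69, against 0.66 for the whole HPL-1 list. Matched HPL-2 intervals ran from 0.56 to 2.43 with a median of 1.07, against 0.95 for the whole HPL-2 intestine list. By rank, 28 regions were in the top 10% of the HPL-1 list and 85 were below its middle rank. The authors' FDR was 0.01 or below in both intestine lists for 109 regions.

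The highest HPL-1 scores were spread over genes of unlike kinds. Among the 200 regions, that over F55E10.1 (X, 8341828 to 8343055) scored highest for both paralogues, 1.57 for HPL-1 and 2.43 for HPL-2. The whole lists reached 1.65 and 3.54. The F55E10.1 region was followed in HPL-1 by a region at the edge of the C-type lectin gene clec-238 (V, 16951067 to 16951890). Scores there were 1.53 for HPL-1 and 1.06 for HPL-2. The HPL-2 interval there did not reach the body of clec-238, the only gene under the regions of which this was true. The region over phb-1, which encodes the mitochondrial scaffold protein prohibitin (I, 2071663 to 2072218), scored 1.51 for HPL-1 and 0.9 for HPL-2. That over syp-1, a component of the synaptonemal complex that pairs meiotic chromosomes (V, 16407072 to 16407540), scored 1.24 and 1.08 in the same order.

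Further down the first 15 by HPL-1 score were srap-1 (1.36), arid-1 (1.2), the DEAD-box helicase gene ddx-27 with its neighbour mtig-1 (1.18), sea-2, an autosomal signal of sex determination (1.16), and the chemoreceptor gene srh-209 (1.16). Of these 15 regions, 11 lay over protein-coding genes, 2 over pseudogenes only (dct-10 and Y46H3C.6) and 2 over no annotated gene. A region without a gene on chromosome V (8653739 to 8654083) combined 1.34 for HPL-1 with 2.12 for HPL-2 and lay 10545 bp from the nearest coding gene, asp-13.

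Ranked by HPL-2 score instead, the regions led to other genes. The highest after F55E10.1 was the region over unc-54, the major myosin heavy chain of body wall muscle (I, 14857615 to 14857761), with 0.92 for HPL-1 and 2.2 for HPL-2. It was only 147 bp wide, and a hypodermis interval lay 116 bp away. The recombination gene rad-54.B (IV, 16962303 to 16962809) had 0.61 for HPL-1 and 1.92 for HPL-2, and the narrowest region of all, 42 bp inside lido-7, had 0.73 and 1.89. The calponin-related gene clik-1 had 0.54 and 1.7. Both regions over C55C3.3 on chromosome IV, with HPL-1 scores of 1.27 and 0.99, lay within a single HPL-2 interval of score 1.78. F55E10.1, C55C3.3 and the region near asp-13 were in the first 15 of both rankings.

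**Figure D3:**
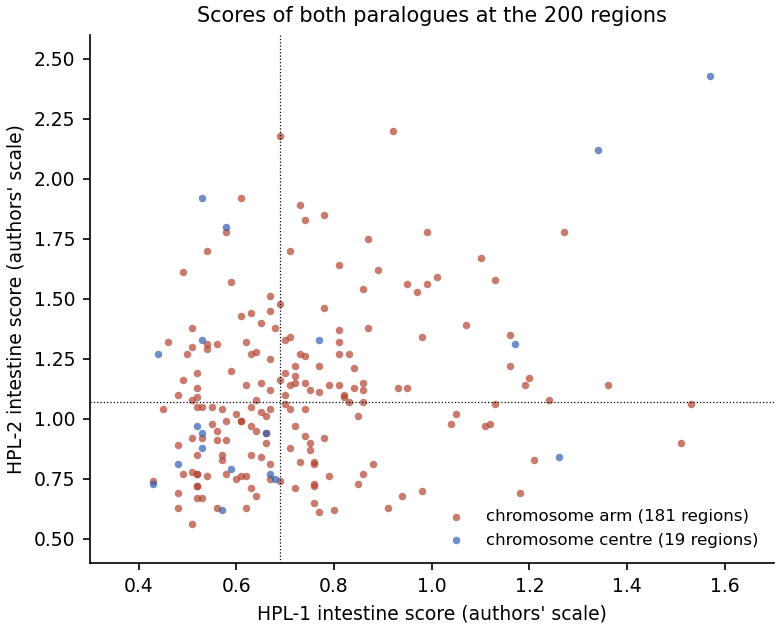
HPL-1 intestine score (x) and HPL-2 intestine score of the leading interval (y), both on the authors' scale, for the 200 regions, with 181 on chromosome arms and 19 in centres; dotted lines are the medians of 0.69 and 1.07. Regions over F55E10.1 (1.57 and 2.43) and near asp-13 (1.34 and 2.12) are high on both axes, and those over clec-238 and phb-1 are high for HPL-1 only.

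Most regions lay on chromosome arms, the outer 2 of 3 equal parts of each chromosome. Of the 200 regions 181 did so (90.5%, exact Clopper-Pearson 95% interval 85.6% to 94.2%), against 74.1% of all HPL-1 intervals and 66.7% of the sequence. The share was 61.4% (57.9% to 64.9%) for intervals in the HPL-1 list only, 88.6% (83.3% to 92.7%) for those shared with the hypodermis only and 96.0% (91.9% to 98.4%) for those in all 3 lists. These intervals cover counting error only, and neighbouring regions are not independent. On autosomes the share of the regions ran from 84.0% on III to 100% on I, where all 30 were on arms.

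By the regions alone, chromosome X was the least arm-bound, but its share matched that of all HPL-1 intervals on X. It held 29 regions, of which 21 (72.4%) were on arms. The other 8 were in the centre, so that X contributed 8 of the 19 central regions in the genome. Of all HPL-1 intervals on X 72.5% were on arms, beside 66.7% of the sequence. For all HPL-1 intervals X was not the least arm-bound, since the shares on III and IV were lower. The regions made up 18.1% of the HPL-1 intervals on X, and from 12.6% (I) to 17.3% (II) on the autosomes, beside 14.9% over all. X held 14.5% (9.93% to 20.2%) of the regions and makes up 17.7% of the genome extent. It held 13.8% of the intervals in the HPL-1 list only, 6.74% of those shared with the hypodermis only, 6.29% of those in all 3 lists and 11.9% of all HPL-1 intervals. Whether these shares differ was not tested.

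Central regions were few and had lower median scores than those on arms. Their medians were 0.58 for HPL-1 and 0.94 for HPL-2, against 0.7 and 1.08 on arms. The whole lists had medians of 0.66 and 0.95, so only the HPL-1 median was clearly below that of its list. The highest region of all, over F55E10.1, was central. Of 11 central regions on autosomes 4 touched no protein-coding gene, and the other 7 lay over dig-1, which encodes a giant matrix protein (0.67 for HPL-1 and 0.77 for HPL-2), rib-1, a heparan sulphate polymerase gene (0.68 and 0.75), odr-2, an olfaction gene (0.52 and 0.97), ncr-2 with col-91, C50F7.5 and F45D3.4. Of 8 central regions on X 6 touched no protein-coding gene, and the other 2 lay over adt-2, which encodes a secreted metalloprotease (0.59 and 0.79), and F55E10.1. Of the 19 central regions 9 were more than 100 kb from any hypodermis interval, against 13 of 181 on arms. Regions that far away included those over the kinase gene mnk-1 (368778 bp), odr-2 (341432 bp), C55C3.3, clec-149 (122464 bp) and gcy-36 (107992 bp).

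**Figure D4:**
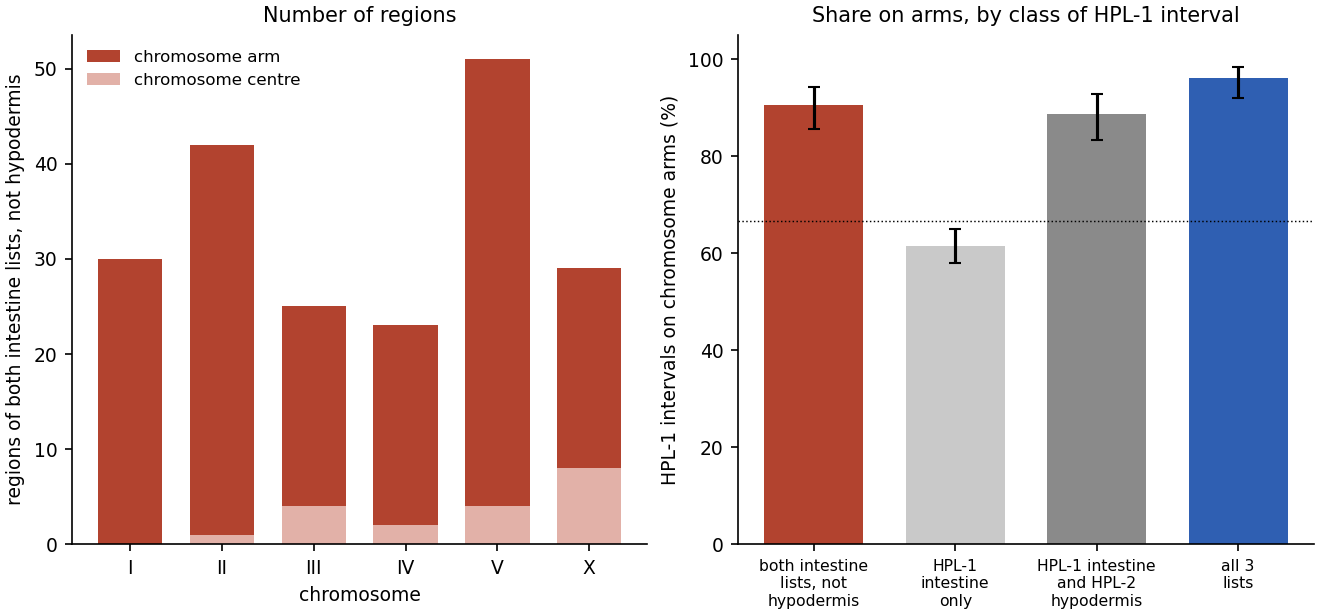
Left, number of the 200 regions on each chromosome, split into arms and centre. Right, share of HPL-1 intestine intervals on arms (%) by class with exact 95% intervals, and the 66.7% of sequence on arms as a dotted line. The regions reach 90.5%, against 61.4% of intervals in the HPL-1 list only. Those shared with the hypodermis only reach 88.6% and those in all 3 lists 96.0%.

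The densest stretches were on the left of chromosomes II and III. The Mb of chromosome II that starts at 2 Mb held 11 regions among 38 HPL-1 intervals. They lay over the cystathionine beta-synthase gene cbs-2, the neprilysin gene nep-18, the receptor guanylyl cyclase gene gcy-21, the Patched homologue ptc-3, lido-7 and 4 genes with sequence names. The Mb that follows held 8 of 32, over lido-11, lido-12, the guanylyl cyclase gene gcy-15, the peroxidase gene skpo-2, clec-133, sea-2 and 2 genes with sequence names. The first Mb of chromosome III held 8 of 23, over the gluconeogenic enzyme gene pck-1, clec-148, clec-149, pll-1, pat-12, which encodes a part of the attachment between muscle and epidermis, and F30H5.3. In all, 48 regions had another of the set within 10 kb and 20 within 1 kb.

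The regions lay mostly inside genes, as did the HPL-1 list as a whole. In 127 regions (63.5%) the interval was wholly inside a protein-coding gene body. A further 27 crossed an edge of one, 3 held a whole gene and 43 (21.5%) touched no protein-coding gene. Of all HPL-1 intervals 55.9% were wholly inside a body and 25.0% touched none. For intervals in the HPL-1 list only the shares were 58.7% and 22.6%. Of their sequence 68.3% fell in protein-coding bodies, against 63.8% for all HPL-1 intervals and 61.9% of the genome extent. Strand and exons were not in the gene table, so promoters, introns and UTRs could not be told apart.

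In all, 156 of 19971 protein-coding genes lay under the regions, 0.781%. HPL-1 intestine intervals of every kind lay over 4.84% of genes, HPL-2 intestine intervals over 6.11% and hypodermis intervals over 5.92%. Genes under the regions had a median length of 3761 bp, against 3338 bp for genes under any HPL-1 interval and 2006 bp for all genes, and a long gene has more room for a peak. The lack of a hypodermis peak call held for the region and not always for the gene. Of the 156 genes, 41 (26.3%) were overlapped by a hypodermis interval elsewhere in the body, among them ketn-1 with 8, cdh-1 with 4, and clec-78, trp-4 and unc-54 with 3 each.

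C-type lectins are secreted or membrane proteins that bind sugars, and they gave 7 of 239 genes under the regions (2.93%, against 0.781% of all genes). These were clec-50, clec-78, clec-103, clec-133, clec-148, clec-149 and clec-238. The regions over clec-148 (HPL-1 0.99, HPL-2 1.56) and clec-149 (0.95 and 1.56) lay wholly under HPL-2 intestine intervals, and no hypodermis interval touched either gene. For clec-148 the rule nearly fixed this, since the region took 1183 of its 1225 bp. That in clec-149 took 951 of 3187 bp. The long gene clec-78 held 2 of the regions together with 3 hypodermis intervals, and clec-50 held 1 of each. Intervals in the HPL-1 list only lay over 11 lectin genes (4.60%, against 3.03% of all genes). Those shared with the hypodermis only lay over 8 (3.35%, against 0.651%), and those in all 3 lists over 4 (1.67%, against 0.651%). HPL-1 intervals of any kind lay over 28 lectin genes, HPL-2 intestine intervals over 20 and hypodermis intervals over 35. The shares of all genes were 4.84%, 6.11% and 5.92% in that order.

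Collagens came next. Of 156 numbered col genes, most of which encode cuticle collagens, 6 lay under the regions (3.85%, against 0.781% of all genes): col-48, col-80, col-91, col-99, col-103 and col-142. HPL-2 intestine scores there ran higher than the list's median of 0.95 for col-80 (1.51), col-103 (1.45), col-48 (1.31) and col-142 (1.15), and lower for col-99 (0.92) and col-91 (0.94). Their HPL-1 scores were between 0.53 and 0.78. None of the 6 had a hypodermis interval in its body. The rule keeps hypodermis intervals out of the regions, which fixed this for col-80, where the region took all 1087 bp. It nearly fixed it for col-91 (1143 of 1310 bp), while the region in col-99 took 529 of 9946 bp. The coordinates of col-48, col-80 and col-91 lie within those of mek-2, dph-2 and ncr-2, so the same regions count for both genes of each pair. Intervals in the HPL-1 list only lay over 7 col genes (4.49%, against 3.03% of all genes). Those shared with the hypodermis only lay over 0 (against 0.651%) and those in all 3 lists over 2 (1.28%, against 0.651%). HPL-2 intestine intervals lay over 72 of the 156, against 15 for HPL-1 intervals of any kind and 8 for hypodermis intervals. The shares of all genes were 6.11%, 4.84% and 5.92% in that order. Of 20 body-shape collagens (such as rol-6 and sqt-3) 0 lay under the regions, and 0 under any HPL-1 interval. HPL-2 intestine intervals lay over 8 of these 20.

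The gene with most regions was unc-52, which encodes perlecan, the main heparan sulphate proteoglycan of the muscle basement membrane. Its 3 regions on chromosome II (14657759 to 14657898, 14661438 to 14662069 and 14663810 to 14665020) scored 0.62, 0.51 and 0.82 for HPL-1 and 1.14, 1.3 and 1.1 for HPL-2. Each lay inside a wider HPL-2 intestine interval, and no hypodermis interval touched the 37136 bp gene. With unc-54, these were 2 of 34 body wall muscle genes (5.88%, against 0.781% of all genes). Intervals in the HPL-1 list only lay over 4 of these genes (11.8%, against 3.03% of all genes). Those shared with the hypodermis only lay over 3 (8.82%, against 0.651%) and those in all 3 lists over 4 (11.8%, against 0.651%). HPL-2 intestine intervals lay over 17 of the 34 and hypodermis intervals over 18, against 6.11% and 5.92% of all genes. mlt-11, a protease inhibitor gene needed for moulting, held 2 regions with HPL-1 scores of 0.84 and 0.51, and 1 hypodermis interval elsewhere in its body.

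Hedgehog-related and Patched-related genes, which worms use in moulting and membrane traffic, gave 4 of 86 (4.65%, against 0.781% of all genes). ptc-3 held 2 regions, which together took 1910 bp of its 7182 bp and had HPL-1 scores of 0.52 and 0.53. grd-11 scored 0.98 for HPL-1 and 1.34 for HPL-2, ptr-23 scored 0.77 and 1.22, and grl-5 scored 0.51 and 0.78. Of these genes, grd-11 and ptr-23 each had 1 hypodermis interval elsewhere in the body. Intervals in the HPL-1 list only lay over 8 of the 86 (9.30%, against 3.03% of all genes). Those shared with the hypodermis only lay over 0 (against 0.651%) and those in all 3 lists over 1 (1.16%, against 0.651%). HPL-2 intestine intervals lay over 13 of the 86 and hypodermis intervals over 5, against 6.11% and 5.92% of all genes.

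**Figure D5:**
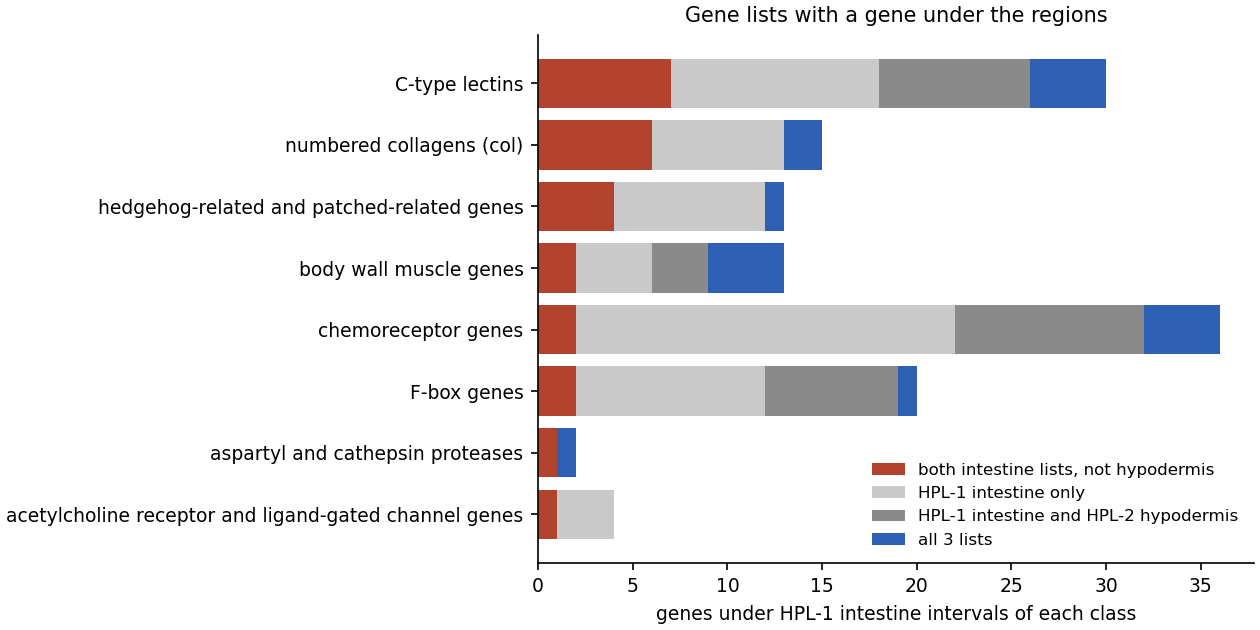
Number of genes (x) of each list with a gene under the 200 regions, by class of the HPL-1 intestine interval over them, where a gene under intervals of 2 classes counts in each. The regions lie over 7 C-type lectin, 6 numbered collagen and 4 hedgehog-related genes, and over 2 of 1309 chemoreceptor genes.

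Other large families were counted in the same way. Chemoreceptor genes gave 2 of 1309 (0.153%, against 0.781% of all genes), srh-209 and srt-19. HPL-1 intervals of any kind lay over 35 of the 1309, against 4.84% of all genes. F-box genes, which encode adaptors of ubiquitin ligases, gave 2 of 322 (fbxa-213 and fbxb-100), a share of 0.621% that is close to that of all genes. MATH and BTB genes gave 0 of 89 and nuclear hormone receptors 0 of 269, and at the share of all genes lists of these sizes would hold few. Single genes came from the ligand-gated channels (lgc-37, a GABA receptor subunit, HPL-1 score 1.13) and the aspartyl proteases (asp-19, 0.66). The lists of detoxification enzymes, vitellogenins, sperm proteins, peptides, antimicrobial proteins, histones and potassium channels had 0 genes under the regions. Shares of lists this small rest on few genes, and whether any list differs from the rest was not tested.

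The 43 regions without a protein-coding gene included 18 over pseudogenes, 22 over no annotated gene of any kind and the rest over noncoding RNA genes alone. In all 19 pseudogenes lay under the regions, and 9.5% of regions touched one, against 9.88% of all HPL-1 intervals and 21.2% of those shared with the hypodermis only. The pseudogene regions with the highest HPL-1 scores were over dct-10 (1.21), Y46H3C.6 (1.19), H06I04.5 (1.11) and Y22D7AR.12 (0.98), and 2 held lectin pseudogenes, clec-44 (0.85) and clec-259 (0.52). A single piRNA gene, 21ur-12457 on chromosome II, lay under the regions. The median distance from the 43 regions to the nearest protein-coding gene was 2373 bp, and 11 were within 1 kb of one.

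The widest regions were again of mixed kinds. The region over tim-1, a Timeless-related gene of chromosome cohesion (III, 12245589 to 12248182), was 2594 bp wide, of which HPL-2 covered 420 bp. Next came 1952 bp over K02F6.1 and K02F6.3 and 1735 bp over dph-2, a diphthamide synthesis gene, and col-80, where the overlap of 1690 bp was the longest of all. They were followed by 1693 bp over the Niemann-Pick C1-related gene ncr-2 and col-91, and 1674 bp over the pseudogene Y46H3C.6.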

How the data were processed

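The authors' deposited files are 3 peak lists with a start, an end, a score and an FDR for each interval. The names of the deposited lists state that peaks were called per GATC fragment from averaged profiles of fusion over Dam, with an FDR limit of 0.05, so replicates had been combined. Bowtie2 2.3.4, SAMtools 1.9 and R 3.4.3 with WBcel235/ce11 were used, per the submitters' processing notes; the peak caller is not given in the sources used here. The deposited score has no stated scale, and each deposited list also holds other values, namely coordinates. Processing of this kind limits resolution to GATC fragments and removes replicate error.

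Intervals were intersected by closed 1-based coordinates in Python 3.11.15 with pandas 2.3.3, checked on simulated intervals. Genes came from a RefSeq table of WBcel235 (19971 protein-coding genes on 6 chromosomes) without strand, exons or sequence, so the planned counts of GATC sites and motifs were not run. A gene was counted when a region shared 1 bp with its body. Chromosome ends were the furthest gene or peak end.

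The regions and the 26 gene lists were chosen with earlier results of these data known. The chemoreceptor list was narrowed to named receptor families after a first count had taken in serpin genes. Named genes were those under the 15 regions with the highest scores in each list, the 5 widest, the 3 smallest and 3 largest overlaps, the 3 densest windows of 1 Mb, and members of the lists, with sequence names where no symbol was given. Other genes named were chosen after their values were seen: those under several regions or in chromosome centres, those at the limits of the rule, those with hypodermis intervals and those nearest to regions without a gene. No tests were made, because peak lists averaged over libraries leave no samples to compare.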

Additional observations from a re-analysis of the deposited data

How the results depend on the processing

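The number of regions fell to 133 with intervals of all lists at an FDR of 0.01 or below, of which 109 were among the 200 and 24 were not. Their median width was 675 bp and their median HPL-1 score 0.77, and fewer intervals entered; the cause of these shifts was not tested. With arms as the outer 2 of 4 parts the share on arms was 80.0%, since arms are then shorter. The other 35 values of the number, arm share, width, score and gene counts stayed within the limits set for change. With intervals of 500 bp the number was again 200, of which 168 were the same regions, and with lists of equal size 177 of 188 were. Without the edge-sharing regions 193 were left, and without those whose HPL-2 interval met the hypodermis list 187, both chosen after seeing the data. Genes numbered from 107 to 210 over the alternatives. Of the lists, F-box genes fell to 1 at an FDR of 0.01, and 1 kb around genes added 1 body-shape collagen, 1 glutathione S-transferase and 1 antimicrobial gene. No paired analysis was possible because the lists hold averaged profiles with no values per replicate, and for this reason no replicate could be left out. Depth per library is unknown.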

Other observations

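On chromosome X, 15 of the 29 regions touched no protein-coding gene (51.7%, exact Clopper-Pearson 95% interval 32.5% to 70.6%), against 28 of 171 on autosomes (16.4%, 11.2% to 22.8%). For the other HPL-1 intestine intervals the shares were 24.4% (17.3% to 32.7%) on X and 25.7% (23.05% to 28.5%) on autosomes. Among HPL-1 intervals in all 3 lists, 6 of 11 on X touched no protein-coding gene. Protein-coding bodies take 54.4% of X and 63.5% of the autosomes. The X regions included neighbours on both sides of a short gap, such as 3749473 to 3750287 (HPL-1 1.12, HPL-2 0.98) and 3751136 to 3752321 (0.78 and 1.85), with a hypodermis interval 385 bp from the first and 174 bp from the second, and a pair over the pseudogene C07D8.2 (0.53 and 0.77 for HPL-1). Another X region without a gene (10428858 to 10430313) had an HPL-1 score of 1.26 and lay 200 bp from mig-15, a kinase gene, and 421469 bp from the nearest hypodermis interval. The contrast was noticed in the lists and was not tested. The 95% intervals cover counting error only, and neighbouring regions, such as the pairs above, are not independent.

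A few small families were counted only after their genes had been seen under the regions, and their shares, beside 0.781% of all protein-coding genes, support nothing on that account. Guanylyl cyclase genes gave 3 of 31 under the regions, gcy-15 (HPL-1 0.87, HPL-2 1.38), gcy-21 (0.49 and 1.16) and gcy-36 (0.77 and 0.61), with 5 under any HPL-1 interval, 6 under HPL-2 in intestine and 3 under HPL-2 in hypodermis. Cadherin genes gave 3 of 12, hmr-1, cdh-1 and cdh-12, of which cdh-1 and cdh-12 also held hypodermis intervals and cdh-12 met HPL-2 at 1 bp only. Of the 12, 5 lay under any HPL-1 interval, 3 under HPL-2 in intestine and 2 under HPL-2 in hypodermis. The lido genes gave 3 of 17, lido-7, lido-11 and lido-12, with 5 under any HPL-1 interval, 8 under HPL-2 in intestine and 6 under HPL-2 in hypodermis. The same region lay over lido-11 and lido-12, and its HPL-2 interval also overlapped a hypodermis interval. A hypodermis interval also lay in the body of lido-11, and the region in lido-7 took 42 bp. Of all genes, 4.84% lay under any HPL-1 interval, 6.11% under HPL-2 in intestine and 5.92% under HPL-2 in hypodermis.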
